A study of Mus musculus with 238 samples.

Results

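A set of 9 interferon-stimulated genes, called the members here, was followed through a mouse brain and liver series: Ifit1, Ifit3, Oasl2, Usp18, Irf7, Isg15, Ifitm3, Bst2 and Ifi27. They were chosen by name, and all 9 had a row among the 21076 gene rows of the count table. RNA was sequenced in bulk from 238 libraries of C57BL/6JN mice aged 19 months, 229 of them from 15 brain regions and 9 from liver. In the diet experiment, 5 females were on dietary restriction (aDR, with the liver libraries of the same mice labelled DR) and 4 females were fed ad libitum (AL). In the plasma experiment, 3 males received plasma of young mice (YMP) and 4 males received saline (PBS). All females belonged to the diet experiment and all males to the plasma experiment, so sex and experiment cannot be told apart. Each treatment was therefore compared with its own controls only. The study set out to map where in the central nervous system these interventions act, in mice of 1 strain and 1 age. The labels used here give no length of restriction and no plasma dose. The mouse numbers of the labels (61 to 69 for diet, 72 to 84 for plasma) mark the same animal in all its tissues.

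Interferons are secreted when a cell senses viral or displaced nucleic acid. They bind receptors on the cell surface, and the signal from these reaches the nucleus, where IRF9 takes part in switching on interferon-stimulated genes. These genes restrain viral entry, translation and budding, and a basal level is kept in tissues without infection. Ageing brain, microglia and the choroid plexus are known for higher interferon-stimulated expression. Among the members, Ifit1 and Ifit3 encode proteins that recognise foreign RNA, and Oasl2 belongs to the oligoadenylate synthetase family of RNA sensors. Irf7 is the transcription factor that amplifies interferon production. Isg15 is a ubiquitin-like modifier, and Usp18 removes it from proteins and also restrains the interferon receptor. Ifitm3 blocks viral fusion at the membrane, Bst2 (tetherin) holds budding virions on the cell, and Ifi27 is a small hydrophobic protein of internal membranes.

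The members lay on 7 chromosomes of the mouse genome (GENCODE M21 annotation of GRCm38). Ifit1 (chr19:34640871-34650009, plus strand) and Ifit3 (chr19:34583531-34588731, plus strand) belong to 1 gene cluster. Irf7 (chr7:141262706-141266481, minus strand) and Ifitm3 (chr7:141009586-141010770, minus strand) also lie near each other. The others were Isg15 (chr4:156199424-156200818, minus strand), Oasl2 (chr5:114896936-114912234, plus strand), Usp18 (chr6:121245906-121270917, plus strand), Bst2 (chr8:71534255-71537456, minus strand) and Ifi27 (chr12:103434211-103440239, plus strand). Libraries were unstranded, and 45 exon bases of Irf7 overlap Phrf1 on the opposite strand, as do 124 exon bases of Usp18 with Gm44148. Reads of these overlaps cannot be assigned to a strand. Ifit3 has a close copy in its cluster, Ifit3b, and Ifitm3 has the relatives Ifitm1 and Ifitm2, so their counts are uncertain where reads could be split between copies.

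Since the members moved together in the libraries described below, their promoters were read for the core of the interferon-stimulated response element, GAAANNGAAA, on both strands. RefSeq promoters (GRCm38.p6, 250 bases before to 50 bases after the annotated start) were at hand for 7 of the 9 members. The motif was present in 5 of these 7, Isg15, Ifitm3, Bst2, Ifit3 and Ifit1, and in 1131 of all 32851 promoters of the same length (3.44%). The windows of Irf7 and Oasl2 did not contain these letters. Both matches in Ifitm3 lay past the annotated start and are not printed. The stretches of the other 4 are given 5′ to 3′ on the strand of the gene, with 12 flanking bases on each side. Capitals mark the motif, which overlaps itself in Isg15 and Bst2 and reads on the opposite strand in Ifit3 and Ifit1. They come from chr4:156200863-156200908 (minus strand), chr8:71537575-71537614 (minus), chr19:34583361-34583428 (plus) and chr19:34640773-34640825 (plus).
Isg15: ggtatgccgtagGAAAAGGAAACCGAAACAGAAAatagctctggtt
Bst2: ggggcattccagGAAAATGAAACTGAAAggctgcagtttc
Ifit3: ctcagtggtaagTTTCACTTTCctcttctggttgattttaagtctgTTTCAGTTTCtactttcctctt
Ifit1: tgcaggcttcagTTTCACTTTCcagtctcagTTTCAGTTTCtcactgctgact

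The libraries held 0.606 to 32.4 M counts (M, mega), and the median was 8.44 M. The summed markers of the labelled tissue and the totals set 13 libraries apart. In 7 of them the markers were under 25% of the tissue median, namely choroid plexus of AL mice 63 and 66, aDR mouse 67 and YMP mouse 73, hypothalamus of PBS mouse 72 and aDR mouse 64, and pons of aDR mouse 67. The other 6 held under 2 M counts. Hypothalamus of PBS mouse 72 had 0.213% of the median of the hypothalamic neuropeptide genes Pmch, Hcrt and Agrp, and its label is therefore uncertain. Elsewhere the defining markers were present, except that 2 of the 3 pons markers were at 0 in some library. The markers chosen for entorhinal cortex, visual cortex, corpus callosum, pons, SVZ and posterior hippocampus had a higher median in another region and therefore do not tell these regions apart. Each library was 1 tissue of 1 mouse, so p-values of treatment within a tissue, or across brain with 1 value per mouse, measure the spread between mice. The test between animals of a group set mice against the spread between regions of a mouse. The test of a treatment effect between regions took the libraries of 1 mouse as independent. In bulk tissue, more cells of a type and more RNA per cell cannot be told apart.

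The members were low to moderate transcripts in brain. Levels are given as CPM, a gene's reads relative to the total reads of its library, after TMM scaling, within brain and within liver separately. Ifi27 was the most abundant member in brain with a median of 50.7 CPM (range 23.6 to 303.5 over 229 libraries), followed by Ifitm3 with 21.4 CPM (6.53 to 97.6) and Ifit3 with 19.6 CPM (5.44 to 217.0). Oasl2 had 8.29 CPM (1.76 to 67.8) and Ifit1 had 7.75 CPM (2.13 to 83.7). Bst2, Irf7 and Usp18 had medians of 4.58, 4.46 and 3.87 CPM. Isg15 was lowest at 1.1 CPM (0 to 11.4), was at 0 counts in 4 libraries and under 10 counts in 114 of 238, so its values carry the largest counting error. Per kb of exon, which allows genes to be compared, Ifi27 (34.5 CPM per kb) and Ifitm3 (31.5) led in brain and Irf7 was lowest (1.18).

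Every member had a regional pattern, and for most of them it peaked in the SVZ (named as in the labels). All 9 members differed between the 15 regions in edgeR's quasi-likelihood test (Benjamini-Hochberg adjusted p from 1.46e-42 for Ifi27 to 2.08e-25 for Isg15). As 99.9% of all genes tested did so, this count says little about the members. The SVZ had the highest median for Ifit1 (22.2 CPM), Ifit3 (45.7), Oasl2 (20.3), Usp18 (12.4), Irf7 (9.74), Ifitm3 (57.7) and Bst2 (11.1). Isg15 was highest in olfactory bulb, with a lowest, median and highest library of 1.88, 4.21 and 7.5 CPM. Ifi27 was highest in choroid plexus, where its libraries ran from 56.0 over a median of 114.2 to 303.5 CPM. The lowest medians lay in cortex: visual cortex for Ifit1 (3.87 CPM), Oasl2 (4.36), Usp18 (1.84), Irf7 (2.38), Isg15 (0.552) and Ifi27 (31.5), motor cortex for Ifit3 (11.6) and Ifitm3 (13.6), and entorhinal cortex for Bst2 (2.49). From the lowest to the highest region the median level grew 3.63-fold for Ifi27 and up to 7.62-fold for Isg15.

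The order of the regions differed between members. For Ifit1 it ran from SVZ over olfactory bulb (15.7 CPM), pons (14.7), hypothalamus (13.5), cerebellum (10.9), medulla (10.7), corpus callosum (9.27), choroid plexus (5.81), thalamus (5.38), anterior hippocampus (5.16), caudate putamen (4.96), motor cortex (4.82), entorhinal cortex (4.65) and posterior hippocampus (4.5) to visual cortex. Ifi27 kept another order, with choroid plexus, SVZ (98.8 CPM), corpus callosum (86.9), medulla (78.2) and pons (73.4) above olfactory bulb (57.4), and with thalamus (32.1) near the end. Ifit3 and Oasl2 had hypothalamus second, at 39.5 and 19.7 CPM, where Ifit3 libraries ran from 19.4 to 59.6 CPM and Oasl2 libraries from 8.38 to 43.6 CPM. Usp18 and Bst2 had corpus callosum second, at 8.46 and 10.4 CPM. For Irf7 it was pons (6.98 CPM), for Ifitm3 olfactory bulb (47.3 CPM) and for Isg15 SVZ (2.29 CPM). Choroid plexus ranked highest for Ifi27, the third for Bst2 (10.15 CPM) and the last but one for Isg15 (0.626 CPM). Neighbours in the order of mean log2 CPM, which differs in places from that of the medians above, were compared within mice by an exact sign-flip permutation test, adjusted over 126 pairs. Only 1 pair passed: Ifi27 was higher in pons than in olfactory bulb in 14 of 15 mice, by 0.46 log2 units on average (SD 0.36, adjusted p = 0.0308). The same single pair passed when the neighbours were taken from the order of medians, a choice made after seeing the data. There Ifit1 was higher in olfactory bulb than in pons in 11 of 15 mice, by 0.41 log2 units (SD 0.68, permutation p = 0.0316, adjusted p = 0.331). No other difference between neighbours passed in either order. Between-region differences took 43.7% (Irf7) to 63.2% (Ifi27) of the sum of squares of log2 CPM, against a median of 68.1% over all genes tested. The mouse took 5.04% to 11.9% (all genes 4.31%), and 31.8% to 47% was left to the single library (all genes 26.1%).

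**Figure D1:**
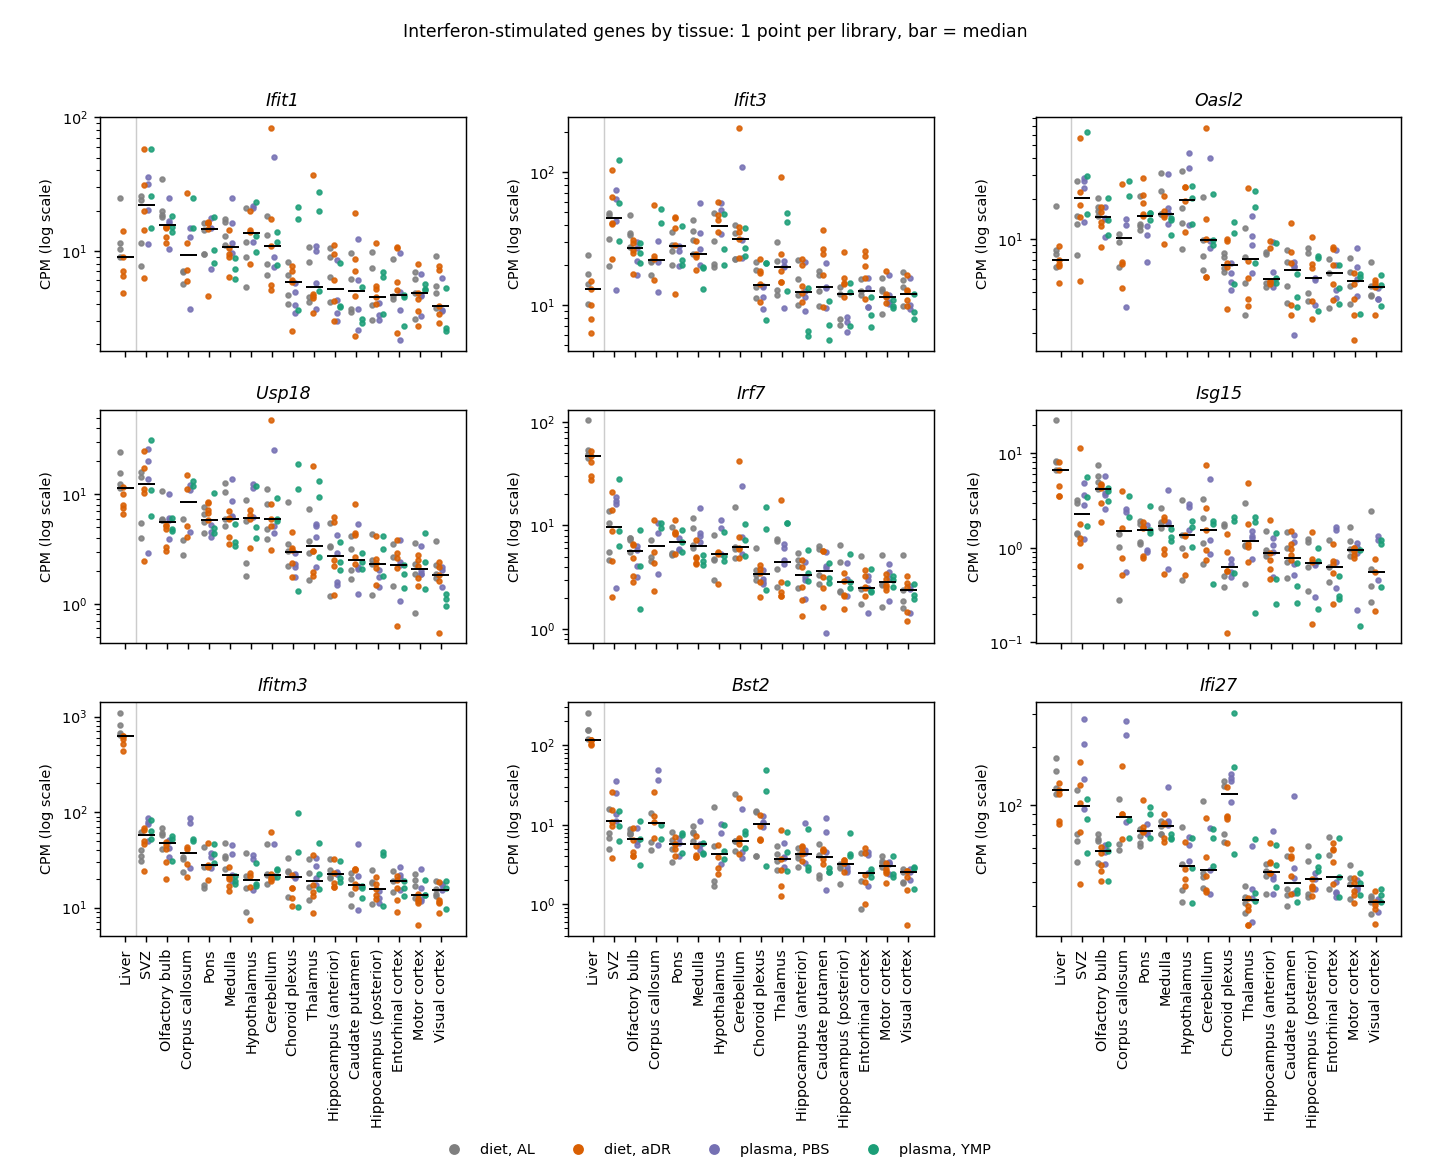
Each panel plots 1 member, with CPM on a log scale against tissue, 1 point per library coloured by experiment and group, and a bar at the median of the tissue (4 Isg15 libraries at 0 are not drawn). Ifit1, Ifit3, Oasl2 and Usp18 fall from SVZ to visual cortex, Ifi27 is highest in choroid plexus among brain regions, and liver lies above brain most for Ifitm3 and Bst2.

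Ifitm3 and Bst2 stood furthest above brain in liver. Ifitm3 in liver ran from 441.6 over a median of 627.3 to 1101 CPM, and Bst2 from 102.4 over 118.0 to 258.4 CPM, with no overlap with any brain library of either gene. Within the 9 diet mice, limma on the liver value minus the mean brain value of each mouse gave 5.84 log2 units for Ifitm3 (57.3-fold, adjusted p = 9e-13) and 5.72 for Bst2 (52.7-fold, adjusted p = 3.76e-12). Irf7 was higher by 4.3 log2 units, Isg15 by 3.29, Usp18 by 2.36 and Ifi27 by 2.12. For Ifit1 the difference was 1.16 and for Oasl2 0.78. Ifit3 did not pass, at 0.15 (adjusted p = 0.308). So 8 of 9 members passed, all higher in liver, where 87.3% of all genes tested passed in either direction. The sizes of these differences, the folds of Ifitm3 and Bst2 among them, are those of TMM scaling. The calls or signs of the small differences depended on it. With plain library totals in place of TMM the median over all genes moved from -0.3 to -1.1, Ifit1 stood at 0.22 and was not called, Oasl2 reversed to -0.15, and Ifit3 was called lower in liver at -0.79 (adjusted p = 0.000205). Per kb of exon, Ifitm3 led in liver with 925.2 CPM per kb, ahead of Bst2 (130.7) and Ifi27 (81.8).

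Within regions, the members varied together from library to library. Each gene was centred on its region and treatment mean, and Pearson r was taken over the 229 brain libraries, which share mice and differ in depth, so r is given as a description with no p. Ifit1 and Ifit3 had the highest r, 0.894. Among Ifit1, Ifit3, Oasl2, Usp18 and Irf7, r lay between 0.785 and 0.894. Isg15 followed these 5 with r of 0.605 to 0.68, in a gene with few counts. Bst2 had its highest r with Ifitm3 (0.767) and Ifi27 (0.764), and Ifi27 with Bst2. Ifitm3 was closer to Irf7 (0.716) and Usp18 (0.712) than to Ifi27 (0.65), and Ifi27 and Ifit3 shared 0.428. Across the 15 region means Irf7 and Usp18 reached 0.982 and Ifi27 and Bst2 0.885. Ifitm3 was there closest to Isg15 (0.848) and Ifit1 (0.834), ahead of Bst2 (0.812), and Ifi27 and Isg15 had the lowest value, 0.399.

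**Figure D2:**
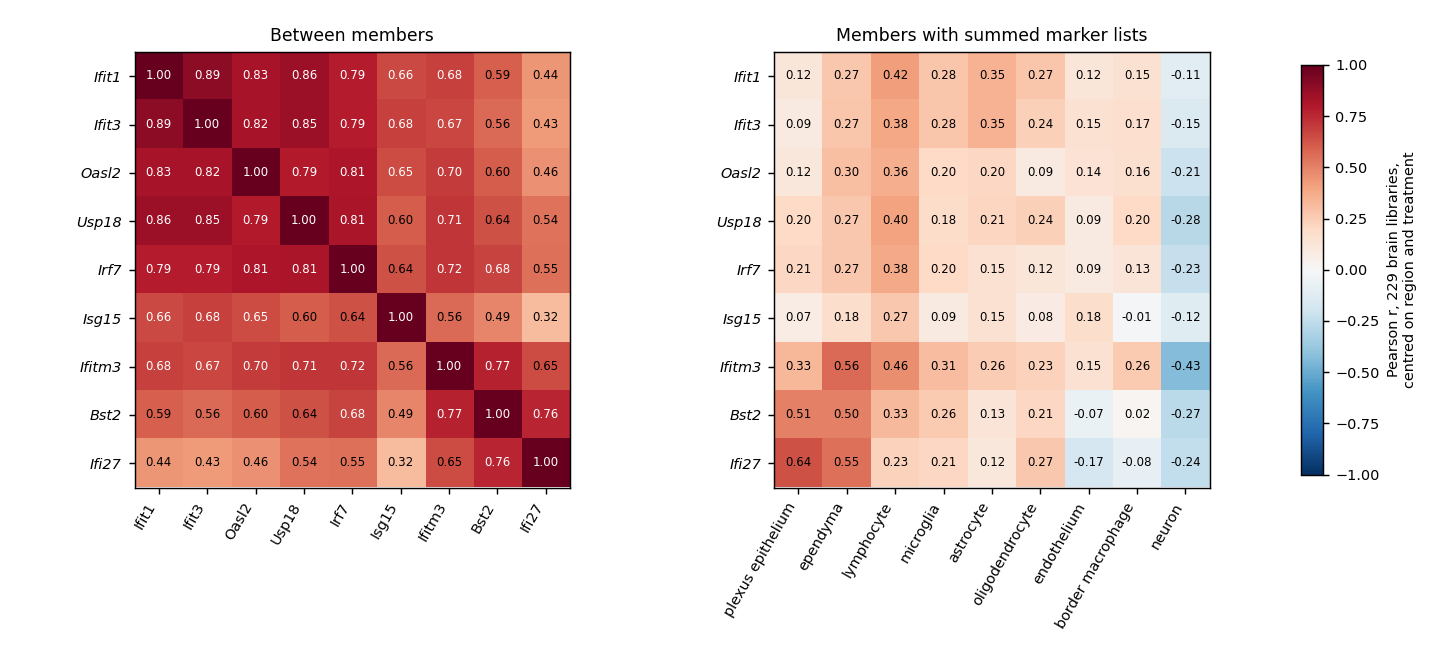
The left panel gives Pearson r between members and the right panel r of each member with the summed level of 9 cell type marker lists, over 229 brain libraries centred on region and treatment. The block from Ifit1 to Irf7 is darkest (0.785 to 0.894), and the column of plexus epithelium markers is darkest for Ifi27 and Bst2 (0.638 and 0.507).

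The genes outside the 9 that followed their mean most closely were other interferon targets and parts of the signal itself. Among the 10 highest of 16063 genes were Rtp4 (r = 0.893), Irf9 (0.833), Ifit3b (0.815), Irgm1 (0.791), Igtp (0.775), Gbp3 (0.769), Lgals3bp (0.752), Ifi27l2a (0.747) and Irgm2 (0.735). Irf9 is a component of the interferon signal, and Irgm1, Igtp, Irgm2 and Gbp3 are interferon-inducible GTPases. Of 41 further interferon-stimulated genes with a row, 27 reached r of at least 0.5, against 64 of all 16063 genes (0.398%). Of 10 receptor and signal genes, 2 did, Irf9 among them, and of 11 tested sensors of nucleic acid 3 did. None of 5 other IRF factors and none of 7 inhibitors did. Reads of the interferons themselves were near 0. Ifna4 and Ifnl3 had no count in any of 238 libraries, Ifnb1 was at 0 in 236 and never above 2 counts, and Ifng was at 0 in 225 and never above 5. Ifnk was the most often counted, at 0 in 135 libraries and at most 11 counts. These zeros limit what this depth can detect and do not show that no interferon was made.

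Ifi27 and Bst2 also followed the amount of choroid plexus epithelium in a library. Their r with the summed level of 7 plexus epithelium markers (Ttr, Kcne2, Folr1, Kl, Aqp1, Clic6 and Prlr) was 0.638 and 0.507, while that of the other 7 members lay between 0.071 (Isg15) and 0.334 (Ifitm3). With 5 ependyma markers the values were 0.563 for Ifitm3, 0.549 for Ifi27 and 0.503 for Bst2. The mean of the 9 members had r of 0.427 with 8 lymphocyte markers, 0.397 with ependyma, 0.274 with plexus epithelium and 0.259 with 8 microglia markers. Outside choroid plexus itself, SVZ and corpus callosum varied most in plexus content, with marker sums in SVZ from 29.4 to 19730 CPM and in corpus callosum from 10.5 to 19150 CPM. In corpus callosum of PBS mouse 76 the sum was 19150 CPM, Ifi27 was at 274.7 CPM and Bst2 at 49.4 CPM, against 10.5, 84.0 and 6.58 CPM in YMP mouse 77. Single libraries of other regions did the same. Caudate putamen of PBS mouse 76 had a marker sum of 3649 CPM and the highest Ifi27 (111.7 CPM) of that region, and cerebellum of AL mouse 68 had 2106 CPM and the highest Ifi27 (105.6 CPM) and Bst2 (24.2 CPM) of the cerebellum.

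**Figure D3:**
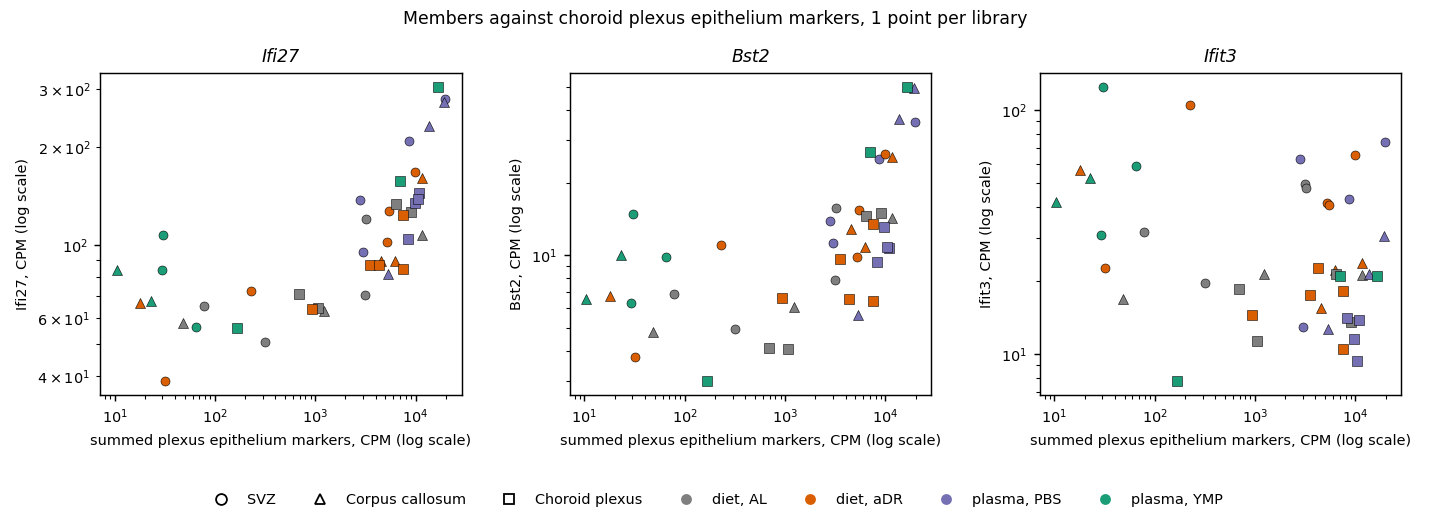
CPM of Ifi27, Bst2 and Ifit3 against the summed CPM of 7 choroid plexus epithelium markers, both on log scales, 1 point per library of SVZ (circles), corpus callosum (triangles) and choroid plexus (squares), coloured by group. Ifi27 and Bst2 are highest where the markers exceed 10000 CPM. Ifit3 has its highest values, 123.5 and 104.8 CPM, at sums under 300, and the next, 73.9 CPM, at a sum of 19730 CPM.

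Single libraries stood far above the rest of their tissue for most members at once. The mean of the 9 members was set against the median of the tissue in each library. It was at least 1 log2 unit higher in 11 of 238 libraries, which came from 6 mice and 6 tissues, and at least 1 lower in 3. The lowest of the 11 was thalamus of YMP mouse 81 at 1.02, and the next below the limit was corpus callosum of PBS mouse 76 at 0.97. These libraries were picked by their level, so the values describe them and no test is given.

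The highest was cerebellum of aDR mouse 62, at 2.27 log2 units. Ifit1 stood at 83.7 CPM there against a cerebellar median of 10.9, Ifit3 at 217.0 against 31.6, Oasl2 at 67.8 against 9.79, Usp18 at 47.5 against 5.91 and Irf7 at 41.9 against 6.14. Of 41 other interferon-stimulated genes, 33 were at least 2-fold over the median. Irf9 reached 77.9 CPM against 17.3. The 8 interferon genes had 0 counts in that library. Its lymphocyte marker sum was 3.12 CPM, within the cerebellar range of 1.47 to 3.3, its microglia sum was 340.8 (range 235.2 to 385.3), and its plexus sum was 16.5 against a median of 18.1. The sum of 5 red blood cell markers was the highest of the 15 cerebellum libraries, 134.8 CPM against a median of 21.2 and a next highest of 81.5. The Kupffer cell sum was also the highest, at 0.39 CPM, while the neutrophil and monocyte sum (5.06 CPM) lay under its median of 10.4. The part of blood in the level was not tested. In the other 14 brain regions of the same mouse the mean of members lay between -0.9 and 0.6, so the high level was seen in 1 region of this animal.

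Cerebellum of PBS mouse 72 showed the same set, at 1.64, with Ifit1 at 50.3 CPM and Ifit3 at 110.6 CPM, and 27 of the 41 other genes at least 2-fold over the median. This mouse was also high in medulla (1.07), and its other regions ran from -0.17 upward. Thalamus of aDR mouse 61 stood at 1.66, with Ifit1 at 36.8 CPM against 5.38 and Ifit3 at 92.6 CPM against 19.5, and 21 of the 41 other genes over 2-fold. Its other 13 regions lay between -0.46 and 0.62. YMP mouse 77 was high in choroid plexus (1.71), thalamus (1.27) and SVZ (1.06), and YMP mouse 81 in choroid plexus (1.12) and thalamus (1.02). In choroid plexus of YMP mouse 77 the plexus marker sum was also the highest of the tissue, 16580 CPM against a median of 7270, as was the microglia sum, 833.7 against 508. Its Ifi27 was 303.5 CPM, yet only 9 of the 41 other genes were at least 2-fold over the median. In liver, AL mouse 68 stood at 1.11 and had the highest level of all 9 members. That library also had the highest summed microglia and macrophage markers of the liver (299.4 CPM against a median of 162) and the highest neutrophil and monocyte sum (58.9 against 16.1). The part of these cells in the level was not tested.

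**Figure D4:**
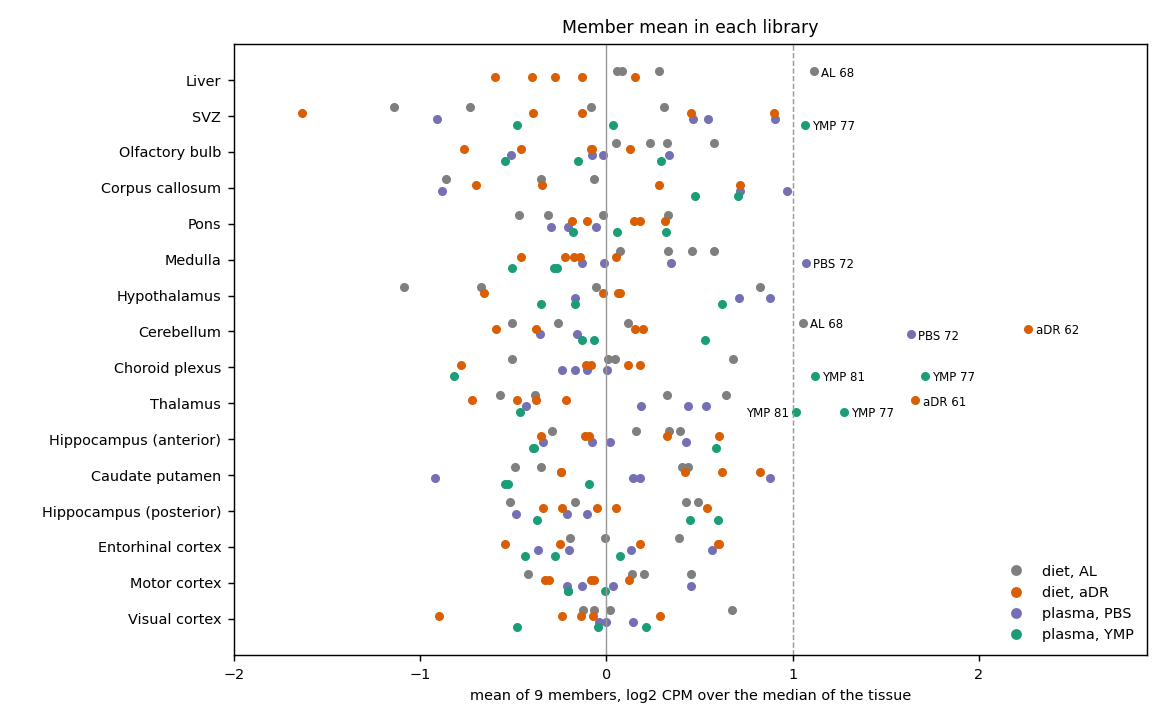
Mean of the 9 members in each library, in log2 CPM over the median of its tissue, with tissues in rows and 1 point per library coloured by group. The dashed line marks 1 log2 unit, and the 11 libraries beyond it are named, led by cerebellum of aDR mouse 62 at 2.27.

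Whether an animal was high or low in all its regions was asked within each treatment group, with limma on log2 CPM adjusted for region. In the diet experiment 1 of 9 members differed between mice of a group, Oasl2 (adjusted p = 0.0499), against 6.72% of all genes. It stood highest in aDR mouse 67 (0.53 log2 units about the mean mouse) and lowest in aDR mouse 64 (-0.36). The count was 0 to 4 when 1 mouse was left out, with 4 members (Bst2, Ifitm3, Irf7 and Oasl2) without aDR mouse 62. In the plasma experiment 5 of 9 differed (Irf7, Ifit1, Isg15, Ifit3 and Oasl2, adjusted p from 0.00318 to 0.0388), against 27.9% of all genes. PBS mouse 72 was highest of the 7 for each of them, with 0.61 for Ifit1, 0.56 for Ifit3 and 0.67 for Isg15. PBS mouse 84 was lowest for Ifit1 (-0.39), Oasl2 (-0.33) and Irf7 (-0.44), and YMP mouse 73 was lowest for Ifit3 (-0.33) and Isg15 (-0.48). Without PBS mouse 84 the count was 0, without PBS mouse 72 or YMP mouse 73 it was 1 (Irf7), and without other mice it was up to 7.

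An animal with high members in brain did not pass as having high members in liver. Over the 9 diet mice, Pearson r of the brain and liver values ranged from -0.001 (Ifit3) to 0.738 (Irf7), and 0 of 9 passed the exact permutation test after adjustment over the 9. Irf7 (r = 0.738, Spearman rho = 0.467, permutation p = 0.0269 for r and 0.213 for rho, adjusted p = 0.121 for r) and Ifitm3 (r = 0.724, rho = 0.567, permutation p = 0.0239 and 0.121, adjusted p = 0.121 for r) were highest. Without the 2 mice farthest from the brain median, r was 0.092 for Irf7 and -0.031 for Ifitm3. Leaving these mice out narrows the range of brain values, which can lower r by itself. Leaving out 1 mouse at a time gave r of 0.37 to 0.845 for Irf7 and 0.486 to 0.877 for Ifitm3.

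Across the brain as a whole, no member passed as changed by dietary restriction. Each mouse gave 1 value per gene, its mean over regions, and limma compared 5 aDR with 4 AL mice. Adjusted p under 0.05 was reached by 0 of 9 members (background 0.922% of 15616 genes). Ifit3 had the smallest p. Its mouse values, in log2 units about the mean mouse, were 0.33, 0.14, -0.18, -0.02 and 0.24 in aDR mice 61, 62, 64, 65 and 67, and -0.23, -0.14, -0.06 and -0.09 in AL mice 63, 66, 68 and 69. The aDR mean was 0.24 log2 units higher (SE 0.1, limma unadjusted p = 0.0399, adjusted p = 0.284), and aDR mouse 64 lay within the AL values. It was the only member under an unadjusted p of 0.05, where 7.25% of genes were higher by this criterion. Irf7 was lower by 0.23 (SE 0.17), as were Isg15 (-0.23, SE 0.18) and Ifitm3 (-0.23, SE 0.12). The other 5 lay between -0.04 (Bst2) and 0.03 (Usp18). The groups overlapped for all 9 members, while 8.3% of all genes had groups that did not overlap.

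The same held for young plasma. Of 9 members, 0 passed in limma on 3 YMP and 4 PBS mice, where 0% of 15768 genes passed, and none was under an unadjusted p of 0.05. The differences ran from -0.23 (Isg15, SE 0.24) to 0.1 (Oasl2, SE 0.19). For Ifit1 the values were -0.28, 0.21 and 0.17 in YMP mice 73, 77 and 81, and 0.61, -0.14, -0.18 and -0.39 in PBS mice 72, 76, 80 and 84. The PBS mice thus enclosed all 3 YMP mice, and the groups overlapped for all 9 members (10.1% of all genes did not overlap). Leaving out 1 mouse turned the sign of 5 members in the diet experiment and of 5 in the plasma experiment.

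Within single tissues the direction differed from tissue to tissue. In the diet experiment 137 pairs of a member and a tissue passed the count filter in edgeR, and 68 were higher and 69 lower in aDR. None was called at an adjusted p under 0.05 (0.0616% of all gene and tissue pairs), while DESeq2 called 2. At an unadjusted p under 0.05 there were 23 pairs (16.8%, against 6.39% of all pairs), 21 of them lower. In 3 pairs the groups did not overlap (3.14% of all pairs did not). In the plasma experiment 0 of 128 pairs were called (0.0127% of all pairs), also by DESeq2, and 26 had an unadjusted p under 0.05 (20.3%, against 6.11%), 13 in each direction. In 11 pairs the groups did not overlap, against 9.21% of all pairs. Isg15 passed the filter in 8 of 15 brain regions in each experiment, and the other 8 members passed in every tissue. The pairs are not independent, since members move together and tissues share mice.

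**Figure D5:**
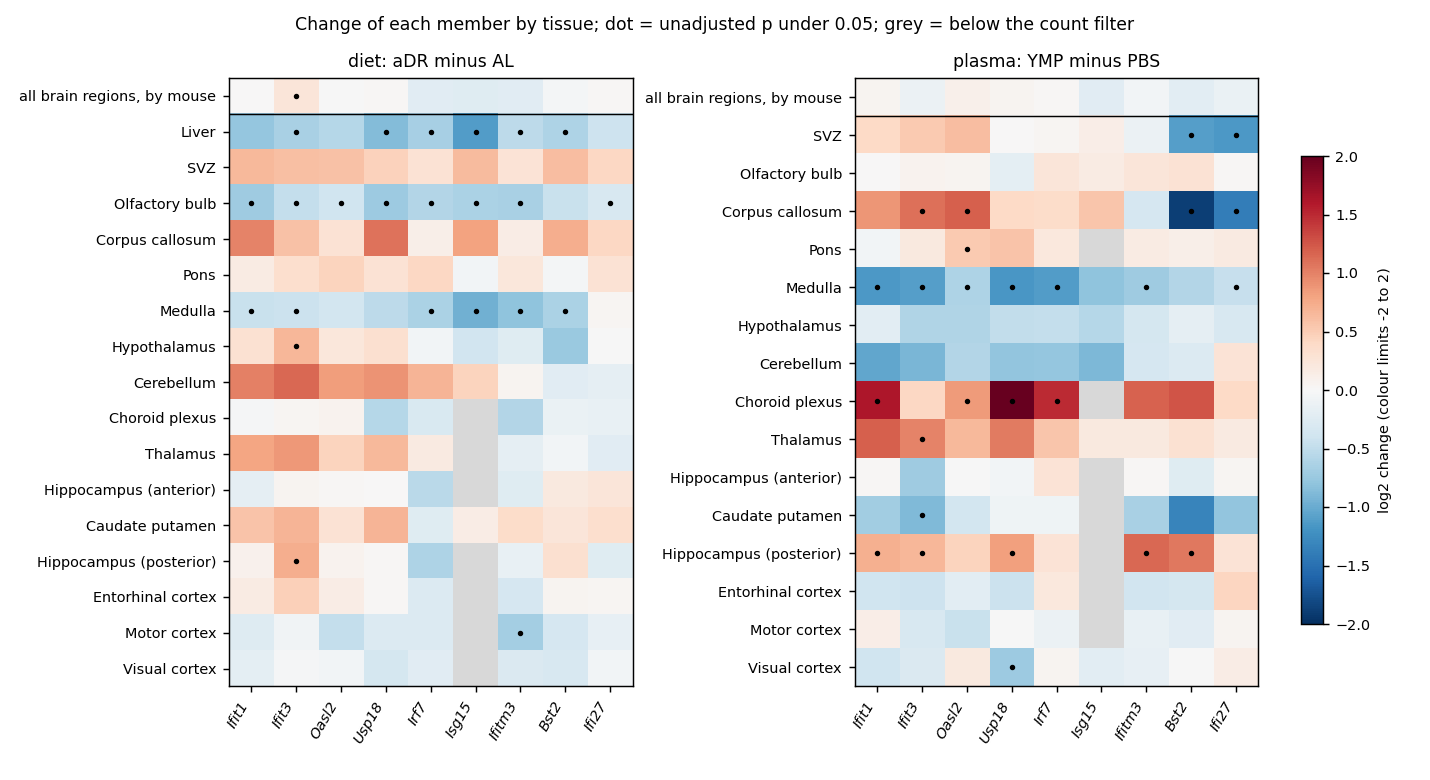
Heat maps of the log2 change of each member in each tissue, aDR minus AL on the left and YMP minus PBS on the right, with the change across brain in the top row and dots at an unadjusted p under 0.05. For diet the rows of liver, olfactory bulb, motor cortex and visual cortex are blue for every member tested, and medulla for 8 of 9. For plasma those of medulla, hypothalamus and caudate putamen are, and cerebellum for 8 of 9. None of the within-tissue changes was called after adjustment.

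Liver, olfactory bulb and medulla held 20 of the 21 pairs that were lower under dietary restriction at an unadjusted p under 0.05. In liver all 9 members were lower in aDR and 6 had an unadjusted p under 0.05, against 4.6% of genes that were lower by this criterion. Usp18 was 10.01, 7.52, 6.66, 11.7 and 7.94 CPM in aDR mice 61, 62, 64, 65 and 67, and 12.4, 11.3, 24.5 and 15.5 CPM in AL mice 63, 66, 68 and 69. Only aDR mouse 65 exceeded the lowest AL value, and the log2 change was -0.87 (SE 0.25, edgeR adjusted p = 0.244). Bst2 was 118.0, 104.9, 117.6, 115.7 and 102.4 CPM in aDR and 121.2, 155.4, 258.4 and 157.0 CPM in AL. The Bst2 groups did not overlap, and aDR was lower by 0.62 log2 units (SE 0.2, adjusted p = 0.308 in edgeR). Of 11815 genes tested in liver, 499 had groups that did not overlap. Isg15 had the largest change, -1.11 (SE 0.4, edgeR adjusted p = 0.382), with 3.56, 6.61, 3.52, 8.07 and 4.49 CPM in aDR and 6.69, 8.23, 22.3 and 7.98 CPM in AL. AL mouse 68 was the highest liver for all 9. The number of members at an unadjusted p under 0.05 was 2 without this mouse and 8 without AL mouse 66. Of 41 other interferon-stimulated genes 39 were lower in aDR livers, 19 at an unadjusted p under 0.05, and 11 of 11 sensors were lower, 5 at that level. Median changes were -0.65 for the members, -0.63 for the 41 genes and 0.02 for all genes. Kupffer cell markers were lower on average in aDR for 5 of 5 genes, with sums of 71.2 to 303.8 CPM in aDR and 155.5 to 526.1 CPM in AL. Of 8 microglia and macrophage markers 7 were lower (86.8 to 201.1 CPM against 129.1 to 299.4). Lymphocyte markers were lower for 7 of 8 genes (13.8 to 26.99 CPM against 19.0 to 27.9), and neutrophil and monocyte markers for 5 of 6 (10.1 to 29.5 CPM against 14.3 to 58.9). Red blood cell markers were lower for 5 of 5 genes, and their sums did not overlap, at 62.2 to 97.1 CPM in aDR and 97.7 to 214 CPM in AL. Border macrophage markers were lower for 4 of 5 genes, yet their sums were 50.7 to 77.6 CPM in aDR against 45.7 to 68.8 CPM in AL. Endothelial markers were lower for 4 of 6 (192.6 to 265 CPM against 150.6 to 210.4). Mural cell and fibroblast markers were lower for 3 of 6 and hepatocyte markers for 2 of 5. No gene of these lists was at 0 throughout a group. Their part in the result was not tested. Whether the diet effect differed between liver and brain was tested with limma on the same mice, and 0 of 9 members passed (0.0248% of all genes). Usp18 was nearest, with a liver change lower by 0.85 than its brain change (adjusted p = 0.34).

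In olfactory bulb all 9 members were lower in aDR, 8 of them at an unadjusted p under 0.05, where 7.05% of genes were lower by this criterion. Ifit1 was 15.0, 11.4, 14.9, 12.8 and 15.1 CPM in aDR mice 61, 62, 64, 65 and 67 and 34.7, 19.9, 18.0 and 18.7 CPM in AL mice 63, 66, 68 and 69. All AL mice were higher, and the log2 change was -0.7 (SE 0.19, edgeR adjusted p = 0.179). Usp18 did not overlap either, with 3.06 to 5.26 CPM in aDR and 5.8 to 10.7 CPM in AL (-0.73, SE 0.24, edgeR adjusted p = 0.233). Of 14119 genes tested in olfactory bulb, 725 had groups that did not overlap. Ifitm3, at 30.0, 20.04, 41.1, 45.5 and 49.1 CPM in aDR and 61.1, 68.5, 41.1 and 57.6 CPM in AL, was lower by 0.65 (SE 0.22). Without AL mouse 63 the number at an unadjusted p under 0.05 was 3, and without aDR mouse 67 it was 9. The olfactory bulb of aDR mouse 65 held 1.83 M counts, and without that library the number was again 8. Of 37 other interferon-stimulated genes 35 were lower, 14 at an unadjusted p under 0.05. Microglia markers were lower on average for 6 of 8 genes (347 to 395.5 CPM in aDR, 379.5 to 413.2 CPM in AL), and lymphocyte markers for 2 of 8. Endothelial markers were lower for 5 of 6 genes (190.2 to 251.3 CPM against 248.9 to 264.3). Neutrophil and monocyte markers were lower for none of 6 (12.6 to 182.9 CPM in aDR, 8.9 to 66.2 CPM in AL). Their part in the result was not tested.

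In medulla 8 of 9 members were lower in aDR and 6 had an unadjusted p under 0.05, against 3.51% of genes. Ifitm3 was 26.8, 14.8, 20.9, 16.7 and 20.2 CPM in aDR and 25.5, 34.4, 33.3 and 47.2 CPM in AL mice, so that only aDR mouse 61 exceeded an AL mouse. The change was -0.8 (SE 0.18, edgeR adjusted p = 0.376), and DESeq2 called it at -0.8 (adjusted p = 0.0131). Irf7 was lower by 0.64 (SE 0.23) and Bst2 by 0.63 (SE 0.2). Ifi27 did not share this, at 0.04 (SE 0.09). Without AL mouse 68 the number of members at an unadjusted p under 0.05 was 3 and without AL mouse 66 it was 8. It stayed at 6 without the library of aDR mouse 62, which held 1.46 M counts. Of 39 other interferon-stimulated genes 35 were lower, 6 at that level. Microglia marker sums were 427.2 to 713 CPM in aDR and 486.6 to 575.3 CPM in AL. Border macrophage markers were lower on average for 5 of 5 genes (0 to 11.5 CPM against 6.73 to 15.8), mural cell and fibroblast markers for 6 of 6 (138.2 to 208.2 CPM against 170 to 235.2) and neutrophil and monocyte markers for 6 of 6 (0.548 to 15.5 CPM against 1.97 to 31.1). Their part in the result was not tested.

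In cerebellum, SVZ and corpus callosum most members had higher estimates in aDR, with no call. In cerebellum Ifit3 was 39.0, 217.0, 31.6, 22.6 and 35.7 CPM in aDR mice 61, 62, 64, 65 and 67 and 34.8, 22.3, 40.1 and 22.1 CPM in AL mice 63, 66, 68 and 69. Apart from aDR mouse 62 the groups covered the same range, and the change of 1.15 (SE 0.6, adjusted p = 0.42 in edgeR) had no call. Of the 9 members 7 were higher in aDR cerebellum, and 8 were lower once aDR mouse 62 was left out. In SVZ all 9 were higher in aDR, from 0.28 (Ifitm3, SE 0.29) to 0.65 (Ifit1, SE 0.58), with 0 at an unadjusted p under 0.05. Ifit1 in SVZ was 30.9, 14.3, 6.26, 19.7 and 58.2 CPM in aDR and 11.4, 25.7, 7.7 and 24.2 CPM in AL, so aDR mouse 64 was the lowest and aDR mouse 67 the highest of the 9. In corpus callosum, with 4 aDR and 3 AL mice, all 9 were higher in aDR as well, up to 1.09 for Usp18 (SE 0.49), again with 0 at that level, and aDR mouse 67 was the highest for Ifit1 (27.2 CPM against 5.61 to 11.4 CPM in the others). Ifit3 was higher at an unadjusted p under 0.05 in hypothalamus (0.66, SE 0.29) and posterior hippocampus (0.73, SE 0.26), the only 2 such pairs in the diet experiment. In posterior hippocampus it was 14.8, 16.03, 11.4, 14.4 and 25.3 CPM in aDR and 7.04, 13.6, 12.1 and 7.89 CPM in AL, and 1 aDR mouse, 64, lay within the AL range.

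The smallest p of any member in the diet experiment was that of Ifitm3 in motor cortex. It was 6.53, 12.2, 13.8, 11.6 and 11.3 CPM in aDR mice 61, 62, 64, 65 and 67 and 16.8, 12.6, 22.3 and 19.3 CPM in AL mice 63, 66, 68 and 69. AL mouse 66 lay within the aDR values. The log2 change was -0.68 (SE 0.16, edgeR adjusted p = 0.0873). DESeq2 called it at -0.67 (adjusted p = 0.0247), and edgeR did so without the count filter (-0.69, adjusted p = 0.0227) and when either AL mouse 66 or aDR mouse 64 was left out. All 8 members tested in motor cortex were lower in aDR, with a median change of -0.27 and 1 (Ifitm3) at an unadjusted p under 0.05, against 4.92% of genes. Without AL mouse 68, 5 were lower. Of 30 other interferon-stimulated genes 26 were lower, 10 at that level. Microglia markers were lower on average for 8 of 8 genes (344.8 to 398.1 CPM in aDR, 378.8 to 425.8 CPM in AL) and mural cell and fibroblast markers for 6 of 6 (114.1 to 144.3 CPM against 141.7 to 151.9), and their part was not tested. In visual cortex all 8 members tested were lower as well, with a median of -0.21 and 0 at an unadjusted p under 0.05, and 4 were lower without AL mouse 68. Of 30 other interferon-stimulated genes there 21 were lower, 2 at that level.

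In the plasma experiment, medulla held 7 of the 13 pairs that were lower at an unadjusted p under 0.05. All 9 were lower in YMP, 7 at an unadjusted p under 0.05 (5.66% of genes were lower by this criterion), and for 5 the groups did not overlap (8.02% of genes). Irf7 was 4.14, 5.17 and 4.56 CPM in YMP mice 73, 77 and 81 and 14.8, 6.85, 7.99 and 8.53 CPM in PBS mice 72, 76, 80 and 84. Every PBS mouse was higher, and the log2 change was -1.11 (SE 0.27, edgeR adjusted p = 0.438). Ifit1 was 7.32, 8.83 and 6.16 CPM in YMP and 25.02, 9.65, 11.5 and 16.2 CPM in PBS, a change of -1.15 (SE 0.3, edgeR adjusted p = 0.438). Ifit3 (-1.1, SE 0.32), Usp18 (-1.16, SE 0.31) and Ifi27 (-0.46, SE 0.15) did not overlap either. PBS mouse 72 was the highest for all 9, and without it 5 members were under an unadjusted p of 0.05, as without YMP mouse 77 or 81. Of 37 other interferon-stimulated genes 36 were lower, 17 at that level, and the median change was -0.68 against 0 for all genes. Markers of most cell types were lower on average in YMP here. All 8 microglia markers were, and their sums of 419.2 to 459.1 CPM lay below the 487.1 to 663.7 CPM of PBS. Lymphocyte markers were lower for 6 of 8 genes (1.43 to 2.8 CPM against 1.25 to 5.8), neutrophil and monocyte markers for 6 of 6 (5.57 to 25.3 CPM against 6.46 to 46.3) and oligodendrocyte markers for 5 of 5 (18970 to 24210 CPM against 23460 to 28760). Astrocyte and red blood cell markers were lower for 5 of 5 genes each, endothelial and mural cell and fibroblast markers for 5 of 6 each. Neuron markers were lower for 2 of 5. The part of these cells in the result was not tested.

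Choroid plexus and posterior hippocampus went the other way. In choroid plexus all 8 members that passed the count filter were higher in YMP, 4 of them at an unadjusted p under 0.05, against 1.63% of genes. The ninth, Isg15, was under the filter, with 0.548, 2.14 and 1.92 CPM in YMP and 0.49 to 0.765 CPM in PBS. Usp18 was 1.3, 18.8 and 11.2 CPM in YMP mice 73, 77 and 81 and 2.91, 2.16, 2.29 and 1.76 CPM in PBS mice. Thus 2 YMP mice were high and the third was below all PBS mice, and the change was 2.15 (SE 0.72, edgeR adjusted p = 1). The library of YMP mouse 73 had 1.98% of the median of the choroid plexus label markers, and its plexus marker sum was 167.1 CPM against 16580 and 7054 CPM in the other YMP mice and 8322 to 10920 CPM in PBS. Without it 9 members had an unadjusted p under 0.05, and without YMP mouse 77 none did. Of 33 other interferon-stimulated genes 24 were higher, 2 at an unadjusted p under 0.05, and their median change was 0.12 against 1.22 for the members. In posterior hippocampus all 8 members tested were higher in YMP, 5 at an unadjusted p under 0.05 (1.28% of genes). Bst2 was 4.3, 4.04 and 7.98 CPM in YMP mice and 2.96, 2.53 and 2.67 CPM in PBS mice 76, 80 and 84, without overlap (1.06, SE 0.31, edgeR adjusted p = 1). In 2 of the 8 members and in 863 of 13857 genes tested there the groups did not overlap. Ifitm3 was 35.8, 10.3 and 38.5 CPM in YMP and 12.7, 11.1 and 15.0 CPM in PBS. The 5 became 1 without PBS mouse 80, YMP mouse 73 or YMP mouse 81. Of 34 other interferon-stimulated genes 30 were higher, 5 at that level, with a median of 0.34 against 0.69 for the members. Markers of blood-borne and border cells moved with this result. Neutrophil and monocyte sums were 19.0, 0.449 and 6.7 CPM in YMP mice 73, 77 and 81 and 0.228 to 0.652 CPM in PBS, with all 6 genes higher on average in YMP. Border macrophage sums were 17.2, 3.37 and 13.7 CPM against 4.35 to 8.28 CPM, with all 5 higher. Lymphocyte sums were 2.15, 0 and 1.54 CPM against 0.521 to 0.709 CPM. YMP mice 73 and 81, above all PBS mice in these 3 sums, were also those with high Ifitm3. The part of these cells was not tested.

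Corpus callosum and SVZ split the members. In corpus callosum, with 2 YMP and 3 PBS mice, Ifi27 was 84.0 and 67.7 CPM in YMP mice 77 and 81 and 274.7, 230.9 and 82.0 CPM in PBS mice 76, 80 and 84 (-1.38, SE 0.45, edgeR adjusted p = 0.407). Bst2 was 6.58 and 10.05 CPM against 49.4, 36.7 and 5.62 CPM (-1.88, SE 0.71). Ifit3 went up instead, at 41.8 and 52.8 CPM against 30.5, 21.3 and 12.6 CPM, without overlap (1.1, SE 0.31, edgeR adjusted p = 0.293). Oasl2 did too, at 21.1 and 27.1 CPM against 14.2, 12.8 and 3.09 CPM, also without overlap (1.2, SE 0.45). With so few mice, 3186 of 13562 genes tested in this region had groups that did not overlap. PBS mouse 84 was the lowest PBS mouse for every one of these. Without it, with 2 YMP and 2 PBS mice left, 5 members were called: Bst2 (-2.31), Ifi27 (-1.75) and Ifitm3 (-0.69) lower, and Ifit3 (0.86) and Oasl2 (0.85) higher. The share of all genes called in that setting was not recorded here. With all mice, 25 of 13562 genes tested in this region were called. Plexus epithelium markers moved with this, since all 7 were lower on average in YMP, with sums of 10.5 and 22.9 CPM against 19150, 13650 and 5277 CPM, and Aqp1 was at 0 in both YMP libraries. Microglia sums were higher in YMP without overlap (735.6 to 792.5 CPM against 597.1 to 662.5), as were oligodendrocyte sums (27120 to 29480 CPM against 18570 to 21080). In SVZ the sums were 29.4, 30.7 and 64.7 CPM in YMP and 19730, 8650, 2805 and 2982 CPM in PBS, all 7 lower on average. Ifi27 there was 84.3, 107.5 and 56.5 CPM in YMP and 280.5, 208.0, 137.6 and 95.5 CPM in PBS (-1.14, SE 0.39, edgeR adjusted p = 0.27). Bst2 was lower by 1.1 (SE 0.45), while Ifit3 and Ifit1 stood at 0.53 (SE 0.58) and 0.4 (SE 0.5). The part of plexus tissue and of the other cells in these differences was not tested.

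In thalamus all 9 members were higher in YMP, 1 of them (Ifit3) at an unadjusted p under 0.05. Ifit3 was 12.9, 42.0 and 49.1 CPM in YMP mice 73, 77 and 81 and 19.4, 19.7, 9.49 and 21.5 CPM in PBS mice 72, 76, 80 and 84 (1.0, SE 0.43, adjusted p = 1 in edgeR), with 2 YMP mice above and 1 within the PBS values. In cerebellum 8 of 9 were lower in YMP and 0 had an unadjusted p under 0.05. Ifit1 there was 11.7, 7.83 and 13.9 CPM in YMP and 50.3, 7.57 and 8.96 CPM in PBS mice 72, 80 and 84. Without PBS mouse 72 none of the 9 was lower and 2 were higher at an unadjusted p under 0.05. In hypothalamus all 9 were lower in YMP with 0 at that level, and without the library of PBS mouse 72, whose hypothalamic markers were nearly absent, 5 were. In caudate putamen all 8 members tested were lower and 1, Ifit3, was at that level, with 10.7, 5.44 and 7.04 CPM in YMP and 13.6, 20.7, 13.7 and 9.6 CPM in PBS (-0.89, SE 0.3, adjusted p = 0.474 in edgeR).

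Whether the effect of a treatment differed between regions was tested with edgeR over all brain libraries of an experiment. Of 9 members 0 passed for diet (0.0128% of all genes), and none had an unadjusted p under 0.05. For plasma 0 passed (0.824%), and Ifit3 was nearest (adjusted p = 0.224). So the opposite signs of medulla and choroid plexus are values side by side, not a shown difference.

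Across brain, no gene of the wider pathway was called. Of 40 other interferon-stimulated genes tested in the diet experiment 28 were lower in aDR and 0 were called, with 7 lower and 1 higher at an unadjusted p under 0.05. Of all genes 8.83% were lower by this criterion, against 7 of 40 here. In the plasma experiment 36 of 41 were lower in YMP, 0 called, with 1 lower and 0 higher at that level (5.61% and 2.48% of all genes), and their median change was -0.11 against 0 for all genes. Ifit3b, the copy of Ifit3, was at 0.2 (SE 0.07, limma adjusted p = 0.205) for diet and -0.06 (SE 0.15) for plasma. Receptor and signal genes, sensors, factors and inhibitors had 0 called in either experiment.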

How the data were processed

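The deposited counts are whole-number reads per gene made by the authors, with 238 library columns. Per the submitters' processing notes, Trim Galore 0.3.7, STAR 2.5.3a and DESeq2 were used with GRCm38; the counting program and annotation are not given in the sources used here. Per the labels' protocols, RNA came from RNeasy columns and libraries from unstranded Smart-Seq2 with Nextera XT. The members and gene lists were chosen with earlier results of these data known.

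Tests ran over all genes in R 4.3.3, with a filter on low counts (filterByExpr, minimum count 10), TMM scaling and Benjamini-Hochberg adjustment. Within tissues edgeR 4.0.16 (quasi-likelihood) was used on counts. Across brain, limma 3.58.1 compared mouse terms of log2 CPM (prior count 2, computed from the deposited counts). DESeq2 1.42.0 was an alternative. Simulated counts with known changes were used to check the tests within tissues, across brain, between regions and between animals of a diet group. The diet effect between liver and brain was checked as well. The sign-flip test, the brain and liver permutation test and the liver minus brain level were not. In each tissue and experiment, all members passing the filter were examined; besides them, the 10 genes most like their mean and the pair with the smallest p were named, except 1 of the 10 that is not reported here. The mouse number in the labels pairs the tissues of an animal, and deviations correlated at 0.039 (diet) and 0.071 (plasma) within mice against -0.005 and -0.012 between mice. In 357 replicate pairs, 0 were identical (chi-square per degree of freedom at least 1.29). Reads carried no molecular identifiers, so depth (0.606 to 32.4 M counts) limits counting error only.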

Additional observations from a re-analysis of the deposited data

Results flagged for a closer look

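Dixon's criterion was applied to groups of 4 or 5 samples, where chance alone passes about 1 group in 20. Of 39 groups of libraries, 3 (7.69%) had a mean of the 9 members past it. Cerebellum of aDR mouse 62 stood at 2.265 log2 units over the tissue median, with the other aDR mice between -0.595 and 0.197. Thalamus of aDR mouse 61 stood at 1.658, with the others between -0.721 and -0.22. Hypothalamus of aDR mouse 62 was the lowest of its 4 at -0.66, with the others between -0.02 and 0.07. Of 27 groups of mouse values across brain, 1 (3.7%) passed: Isg15 of PBS mouse 72 at 0.665 log2 units about the mean mouse, with the others between -0.126 and -0.039. Among single members in single tissues, 42 of 351 groups passed, 37 of them at the high end.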

How the results depend on the processing

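Leaving out the 13 libraries that stand apart, and the other alternatives added after seeing the data, kept the counts of members called across brain at 0 in both experiments. With all brain libraries in limma voom and the mouse as a replicate block, 0 members were called in either experiment. With no replicate block 1 was called for diet (Ifit3, 0.306, limma voom adjusted p = 0.0297). That setting takes the libraries of 1 mouse as independent, so its p does not measure the spread between mice. The share of all genes called in it is not given here. Small differences turned sign. For diet, Bst2 was 0.09 with and 0.061 with no replicate block, and Oasl2 0.092 and 0.08, and 0.002 without choroid plexus. For plasma, with the block, with no block and without choroid plexus, Irf7 was -0.155, -0.059 and -0.067 and Usp18 -0.171, -0.075 and -0.062, and Ifit1 was -0.002 with the block and -0.036 without choroid plexus. Leaving out 1 mouse gave, for diet, Ifit1 -0.084 to 0.116, Ifi27 -0.033 to 0.051, Bst2 -0.182 to 0.067, Oasl2 -0.132 to 0.093 and Usp18 -0.073 to 0.161, and for plasma Ifit1 -0.065 to 0.272, Ifit3 -0.236 to 0.048, Irf7 -0.131 to 0.23, Usp18 -0.074 to 0.227 and Ifitm3 -0.127 to 0.044. Members that differed between animals of a diet group numbered 0 without choroid plexus and 0 with RLE size factors, and 0 to 4 leaving out 1 mouse (plasma 0 to 7). Within tissues, diet gave 2 calls with DESeq2 (Ifitm3 in motor cortex and medulla), 1 with no filter and 0 to 1 leaving out 1 mouse. Plasma gave 2 with no filter (Ifi27 and Ifit3 in corpus callosum) and 0 to 5 leaving out 1 mouse. For the plasma effect between regions, 1 member (Usp18) was called without the libraries that stand apart. The share of all genes called in that setting is not given here (0.824% with all libraries). The test takes the libraries of 1 mouse as independent, so this call cannot be weighed. With library totals in place of TMM, liver minus brain was -0.793 for Ifit3 and -0.151 for Oasl2. The brain and liver r passed for 0 to 1 members leaving out 1 mouse, with Ifit3 between -0.285 and 0.12 (0.01 with RLE) and Usp18 between -0.075 and 0.582. The causes were not tested. Isg15, under 10 counts in 114 libraries, is limited most by depth.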

Other observations

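The 3 libraries with the lowest mean of the members against their tissue were SVZ of aDR mouse 64 (-1.64 log2 units), SVZ of AL mouse 68 (-1.14) and hypothalamus of AL mouse 66 (-1.09). AL mouse 68 thus held 1 of the lowest libraries in SVZ beside high ones in liver (1.11) and cerebellum (1.05). In its SVZ library Ifit1 was at 7.7 CPM and Ifit3 at 19.6 CPM, against SVZ medians of 22.2 and 45.7 CPM, and in its cerebellum they were at 18.1 and 40.1 CPM against 10.9 and 31.6 CPM.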
